A study of Mus musculus with 18 samples.

Results

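Matrix metalloproteinases (MMPs), ADAMs, ADAMTSs and their tissue inhibitors (TIMPs) were examined in mouse mammary tumors and normal mammary glands by RNA-seq. Members were every gene whose symbol carries the Mmp, Adam, Adamts or Timp stem followed by a member number, 79 of the 55450 genes in the count table: 23 Mmp, 33 Adam, 19 Adamts and 4 Timp genes. Enough counts for a test were found for 58 of them, and 21 fell below the filter. The 21 were 17 of the 21 ADAMs known mainly from the reproductive tract, together with Mmp1a, Mmp1b, Mmp20 and Mmp21. Adam26a, Adam26b, Adam29, Adam34 and Adam6a had no counts in any of the 18 samples.

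The 3 tumor genotypes and wild type tissue were compared, all in females of C57Bl/6 J background. B1/P/Rbf tumors (n = 5) carried Brca1fl/fl, Trp53fl/fl and TgK18GT121Tg/+. B1/P tumors (n = 5) carried Brca1fl/fl and Trp53fl/fl, and P/Rbf tumors (n = 5) carried Trp53fl/fl and TgK18GT121Tg/+. Loss of Trp53 was therefore shared by every tumor. Tumors had been started by injecting an adenovirus that expresses Cre from the CMV promoter (Ad5-CMV-Cre) into the ducts of the abdominal gland of adult females, so recombination was limited to cells that the virus reached. T121 is a fragment of the SV40 large T antigen that inactivates pRb and its relatives p107 and p130, and the transgene is driven by the keratin 18 promoter, which is active in epithelium. Normal mammary glands (n = 3) came from wild type mice. Each library was made from the tissue of 1 mouse, and ages at collection were not given in the labels.

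MMPs are secreted or membrane-bound zinc proteases that cut collagens, gelatin, proteoglycans and other matrix proteins, and most are made as inactive proenzymes. ADAMs are membrane proteins, and those with an active protease domain shed the outer part of receptors, adhesion molecules and growth factor precursors from the cell surface. ADAMTSs are secreted relatives that trim procollagens and cleave proteoglycans such as aggrecan and versican. TIMPs bind the active site of these proteases and block it. In the mammary gland these families take part in the branching of ducts, in involution after lactation and in the remodeling of tumor stroma.

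Total counts per library lay between 27661173 and 37794889. Trp53 was at 54.4 to 71.8 CPM (counts relative to the size of the library, scaled by the trimmed mean of M values, TMM) in the normal glands and at 6.75 to 24.3 CPM in the tumors of all 3 genotypes. Brca1 was at 21.1 to 45.0 CPM in B1/P/Rbf, 8.13 to 27.9 in B1/P, 44.9 to 116 in P/Rbf and 4.61 to 5.99 in the glands. Counts over whole genes include exons outside the floxed parts, so these levels do not measure recombination. By the study's RT-qPCR, expression of Brca1 was lost only in part in B1/P/Rbf tumor 208863, and this tumor had the highest Brca1 level of its group. Without it, 5 members in place of 9 were called in B1/P/Rbf against B1/P, and over all genes 1137 higher and 1356 lower in place of 1413 and 1782. Leaving out tumor 208857 or 209490 of the same group left 4 and 5 members. Over all genes these 2 fits called 1077 higher and 1250 lower, and 1259 and 1490. The tissues differed in cellular content: the summed level of 7 adipocyte markers was 13700 to 18900 CPM in the glands and 6.2 to 214 in the tumors, that of 6 skeletal muscle markers was 23100 to 45300 against 2.01 to 607, and that of 7 lymphocyte markers was 369 to 510 against 1.75 to 31.1. All markers of these 3 lists were called lower in every tumor genotype than in the glands, and the part of tissue content in the comparisons with gland was not tested. In bulk tissue, fewer cells of a type and less RNA per cell cannot be told apart. An earlier analysis of these data divided the libraries into 2 sets, all B1/P/Rbf with B1/P tumors 225068, 225070 and 246361 in one and all other samples in the other. The labels name no batch, and the study's methods state that all samples were pooled for sequencing. A fit with a term for these sets is given as an alternative. Only B1/P has tumors in both sets, so the term is estimated from the B1/P tumors alone. Between B1/P/Rbf and the glands or P/Rbf, set and genotype cannot be told apart.

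The first comparisons asked what T121 added to loss of Brca1 and Trp53, and how tumors with T121 but intact Brca1 alleles differed from B1/P tumors. Genes were called at 0.05 or less in the quasi-likelihood test of edgeR, after Benjamini-Hochberg adjustment over all 19186 genes tested. In B1/P/Rbf against B1/P, 1 member was higher and 8 were lower, while 7.36% of all genes were called higher and 9.29% lower. In P/Rbf against B1/P, 3 members were higher and 10 were lower, beside 8.43% and 10.8% of all genes. Most of the lower members were Adamts genes, 6 of 19 tested in the first comparison and 9 of 19 in the second. The median log2 fold change of the 58 members was -0.25 and -0.63, beside -0.06 and -0.05 over all genes. These comparisons share the B1/P tumors. Between B1/P/Rbf and P/Rbf no member was called in this edgeR fit, beside 0.219% of all genes called higher and 0.0625% lower. Alternative edgeR fits without TMM scaling or without the filter called Adamts9 there. In that comparison 11 members had an unadjusted p under 0.05, and DESeq2 called 3 and limma-voom 0. Over all genes DESeq2 called 587 higher and 427 lower and limma-voom 21 and 5.

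Against normal glands, 15 members were higher in each tumor genotype. Lower members numbered 8 in B1/P/Rbf, 4 in B1/P and 11 in P/Rbf. Over all genes, 17.0% rose and 20.0% fell in B1/P/Rbf, with 16.8% and 16.9% in B1/P, and 17.4% and 20.3% in P/Rbf. The 3 comparisons share the gland samples. Upward calls were spread unevenly over the families: 7 of 19 Mmp genes in each genotype, 4 of 16 Adam genes in B1/P/Rbf and P/Rbf but 0 of 16 in B1/P, and 7 of 19 Adamts genes in B1/P but 3 and 2 in B1/P/Rbf and P/Rbf. These differences between genotypes in the number of calls were not tested. With the library-set term the B1/P/Rbf count fell to 10 (over all genes, from 3271 higher and 3836 lower to 1772 and 2103), of which 9 were among the 23 of the fit without it, and the calls it ended were those of Mmp7, Mmp8, Mmp9, Mmp14, Timp1, Adam6b, Adam9, Adam17, Adam23, Adam28, Adamts4, Adamts5, Adamts16 and Adamts20. Without TMM scaling the split in P/Rbf became 18 higher and 8 lower, while that over all genes went from 3333 and 3897 to 4720 and 3159. With limma-voom that in B1/P became 15 and 10 (3556 and 3475 over all genes) and that of P/Rbf against B1/P became 5 and 10 (1579 and 1580).

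**Figure D1:**
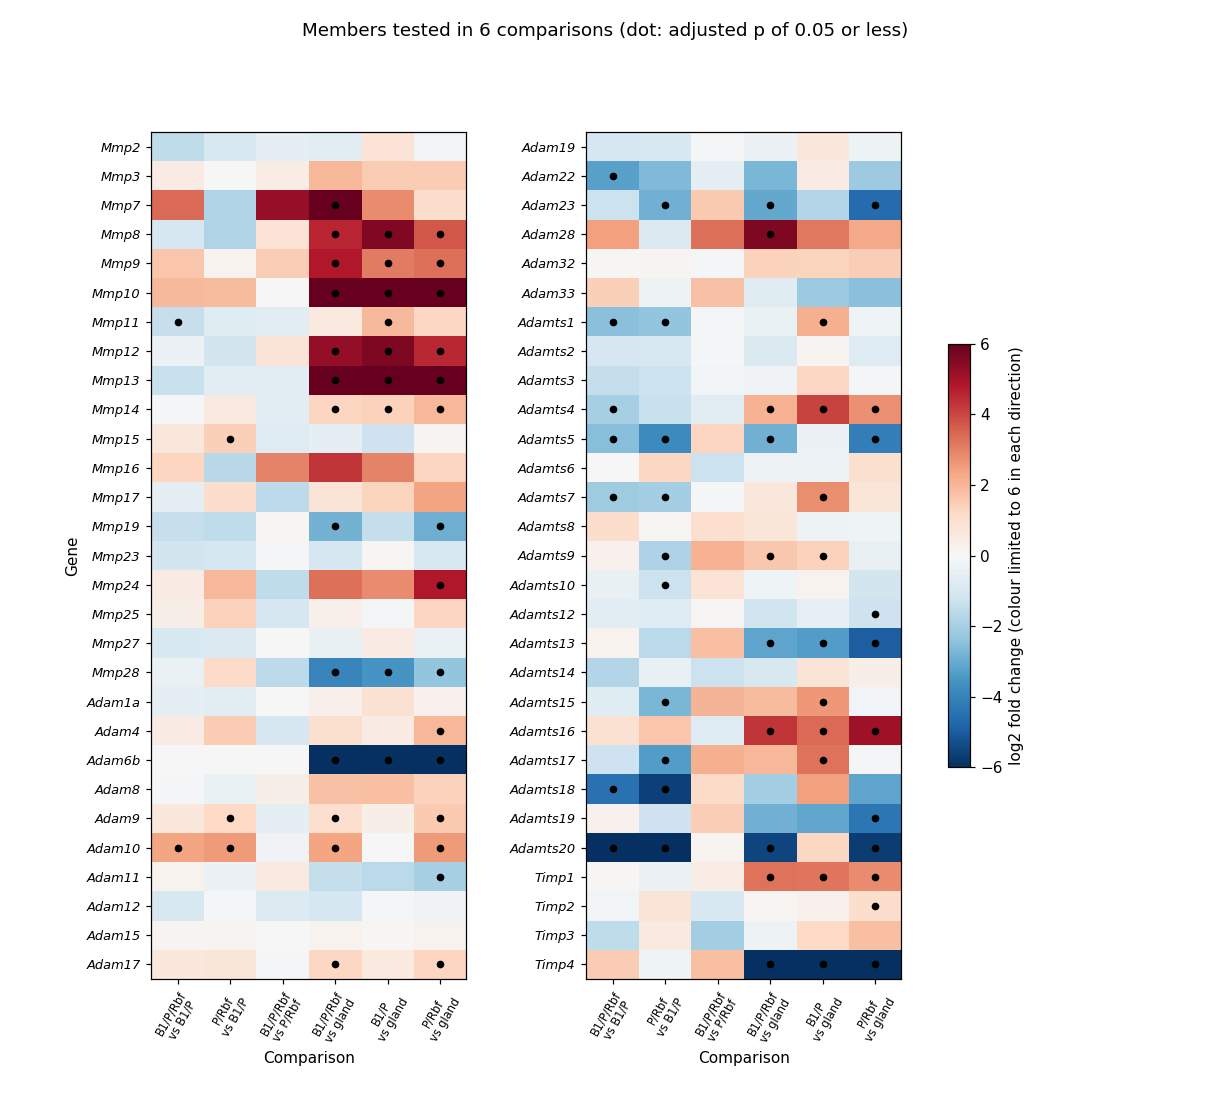
Log2 fold change of the 58 members tested (rows) in 6 comparisons (columns), with colour limited to 6 in each direction and a dot where the edgeR adjusted p was 0.05 or less. In the columns against normal gland dots fall on 9, 8 and 9 of 19 Mmp genes, while the columns against B1/P hold dots mainly on Adamts genes and on Adam10, and the column of B1/P/Rbf against P/Rbf holds none.

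A cluster of 10 Mmp genes lies on chromosome 9 between positions 7272514 and 7699585 (GRCm38): Mmp13, Mmp12, Mmp1b, Mmp3, Mmp1a, Mmp10, Mmp8, Mmp27, Mmp20 and Mmp7. Of the 10 genes, 7 were tested, and 5, 4 and 4 were called higher than gland in B1/P/Rbf, in B1/P and in P/Rbf. Over all genes, 17.0%, 16.8% and 17.4% were called higher in the same comparisons. The median log2 fold change of the 7 was 5.28, 5.55 and 3.75, beside 0.05, 0.12 and 0.05 over all genes. The 4 were Mmp13, Mmp12, Mmp10 and Mmp8, and Mmp7 was added in B1/P/Rbf. Of these, Mmp13, Mmp10, Mmp8 and Mmp7 passed the filter only through the tumors. Their calls against gland, and the counts and medians above, are thus not independent of the filter. None of the 7 was called between tumor genotypes by edgeR with all samples. DESeq2 called Mmp7 in B1/P/Rbf against P/Rbf (adjusted p = 0.00903).

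Mmp13, a collagenase that cuts fibrillar collagen (chromosome 9, positions 7272514 to 7283331, GRCm38), was at 0.196, 0.360 and 0.237 CPM in the glands. It was at 97.4, 8.53, 73.1, 11.3 and 23.6 CPM in B1/P/Rbf, at 27.1, 339, 50.02, 36.0 and 81.1 in B1/P and at 84.6, 46.0, 105, 7.48 and 99.2 in P/Rbf. Every tumor lay above every gland, by at least an order of magnitude. The log2 fold change was 7.31 ± 1.35 (SE), 8.63 ± 1.43 and 7.99 ± 1.39 (edgeR adjusted p = 0.000486, 0.000217 and 0.000272), and that of B1/P was 7.49 without tumor 225070. Mmp8, the collagenase best known from neutrophils, had 4 counts in all glands together and rose to 0.207 to 7.67 CPM in the tumors (log2 fold change 4.55, 5.55 and 3.75, edgeR adjusted p = 0.0159, 0.00685 and 0.0364). Its calls in B1/P/Rbf and P/Rbf were lost without gland 330154 or 330156, and that in P/Rbf also without tumor 290860 (adjusted p up to 0.120). The library-set term ended those in B1/P/Rbf (0.717) and B1/P (0.144). The highest levels, 7.67 and 3.04 CPM, were in B1/P tumors 225070 and 246361, which also had the highest sums of 8 neutrophil markers (523 and 303 CPM, all other samples 4.74 to 114).

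Mmp12, the macrophage metalloelastase, was at 1.21, 1.21 and 1.46 CPM in the glands. It was at 32.4, 24.9, 38.6, 84.3 and 71.3 CPM in B1/P/Rbf, at 54.6, 188, 31.0, 21.5 and 22.1 in B1/P and at 17.3, 16.4, 47.0, 10.2 and 58.4 in P/Rbf. No tumor overlapped the glands, and the log2 fold change was 5.28 ± 0.91, 5.61 ± 0.93 and 4.52 ± 0.88 (edgeR adjusted p = 0.000268, 0.000216 and 0.000691). That of B1/P was 4.64 without tumor 225070. The summed level of 8 macrophage markers was 168 to 604 CPM in B1/P/Rbf, 284 to 1270 in B1/P, 201 to 455 in P/Rbf and 193 to 290 in the glands, and 2, 5 and 1 of the 8 were called higher in the tumors, while Cd163 was called lower in P/Rbf.

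The stromelysins differed among themselves. Mmp10, which cuts proteoglycans and activates other MMPs, had 1 count in the 3 glands together. It was at 185, 19.1, 21.6, 14.0 and 5.97 CPM in B1/P/Rbf, at 4.36, 25.1, 21.9, 4.26 and 8.01 in B1/P and at 99.1, 6.65, 11.9, 0.5001 and 123 in P/Rbf. The ratio of its summed counts, per library size, to the glands was 4190 (95% exact interval 751 to 165000), 1130 (203 to 44700) and 3830 (688 to 151000), with intervals that cover counting error only. The edgeR adjusted p was 0.00129, 0.00445 and 0.00126. Tumor 208855 held most of the B1/P/Rbf counts, and without it the fitted log2 fold change, itself dependent on the prior count, was 9.95 in place of 11.65 (0.0014). Without P/Rbf tumor 290845 that of P/Rbf was 10.92 in place of 11.62. Gland 330155 held the only gland count, and without it, with the other glands at 0, the fitted values, which are no bound, were 13.70, 11.72 and 13.70 in B1/P/Rbf, in B1/P and in P/Rbf. Mmp3, its close relative, was already at 22.8, 10.3 and 24.9 CPM in the glands. It was at 333, 8.04, 12.1, 14.1 and 19.7 CPM in B1/P/Rbf, at 7.25, 103, 87.5, 28.2 and 52.97 in B1/P and at 195, 29.2, 34.9, 4.84 and 16.4 in P/Rbf. Tumors lay on either side of the glands, and Mmp3 was called in none of the 6 comparisons (adjusted p of at least 0.247). The RSEM counts of Mmp3 and Mmp10 hold fractions in 8 samples each, so their split of shared reads is uncertain.

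Mmp7 (matrilysin), an epithelial protease that sheds cell surface proteins, was high in only 2 tumors. It was at 39.0 and 15.1 CPM in B1/P/Rbf tumors 208857 and 208863 and at 0.0567, 0 and 0.130 in the other 3. It was at 0.127, 0.119, 0.855, 3.02 and 1.01 CPM in B1/P, at 0.0863, 0.442, 0, 0.158 and 0.783 in P/Rbf and at 0.117, 0.229 and 0.0677 in the glands. Its call against glands in B1/P/Rbf (log2 fold change 6.25 ± 2.34, edgeR adjusted p = 0.0443) was lost in 11 of 24 other settings, and without tumor 208857 it was 4.75 (adjusted p = 0.0973). The call was also lost without 208863, 246361, 248662 or any 1 gland (adjusted p up to 0.136) and with limma-voom (0.379). Mmp27 was at 0.0288 to 1.83 CPM in all samples and was called in no comparison.

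**Figure D2:**
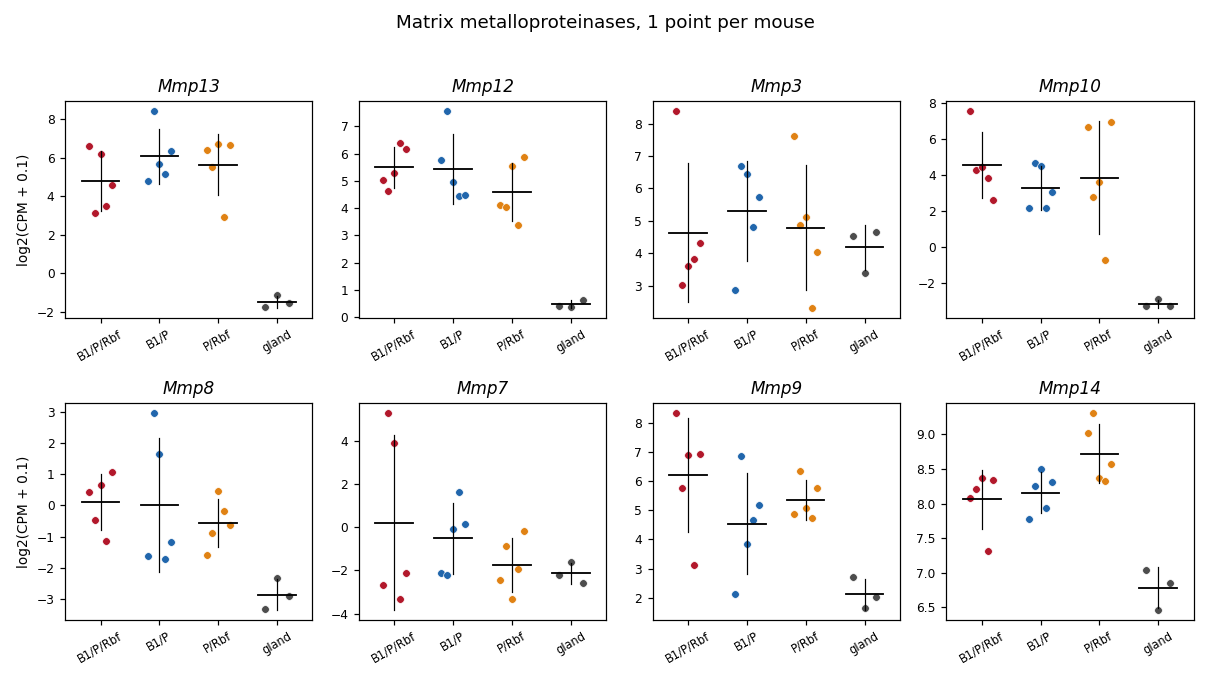
Log2(CPM + 0.1) of 8 Mmp genes (panels), 1 point per mouse by group, with a horizontal line at the mean and a vertical line of 1 SD either way on that scale. All tumors lie above all glands for Mmp13, Mmp12, Mmp10, Mmp8 and Mmp14, while Mmp3 overlaps the glands, Mmp7 is high in 2 B1/P/Rbf tumors, and 1 B1/P tumor lies among the glands for Mmp9.

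The promoters of this cluster are shown because several of its members moved together. Sequences are from RefSeq (GRCm38.p6), 300 bases from 250 before to 50 after the annotated start, 5′ to 3′ on the strand of the gene. Capitals mark 2 motifs, each searched on both strands. One is the AP-1 element TGACTCA, to which dimers of Fos and Jun proteins bind and which reads TGAGTCA from the opposite strand. The other is the TATA box TATAAA, which reads TTTATA from the opposite strand. Mmp13, Mmp3 and Mmp10 hold both motifs, which do not overlap, and Mmp8 holds only TTTATA.
Mmp13: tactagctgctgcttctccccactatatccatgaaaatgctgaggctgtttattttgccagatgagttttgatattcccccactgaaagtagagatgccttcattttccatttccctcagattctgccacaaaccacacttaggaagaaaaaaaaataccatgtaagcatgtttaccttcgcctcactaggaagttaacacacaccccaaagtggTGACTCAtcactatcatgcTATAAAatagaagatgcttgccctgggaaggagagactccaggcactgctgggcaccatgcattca
Mmp3: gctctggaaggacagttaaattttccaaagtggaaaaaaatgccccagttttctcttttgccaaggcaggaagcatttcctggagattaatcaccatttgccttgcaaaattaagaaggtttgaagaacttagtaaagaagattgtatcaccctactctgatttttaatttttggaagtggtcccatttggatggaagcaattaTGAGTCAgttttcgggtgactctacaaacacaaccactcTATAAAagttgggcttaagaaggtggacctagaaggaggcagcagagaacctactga
Mmp10: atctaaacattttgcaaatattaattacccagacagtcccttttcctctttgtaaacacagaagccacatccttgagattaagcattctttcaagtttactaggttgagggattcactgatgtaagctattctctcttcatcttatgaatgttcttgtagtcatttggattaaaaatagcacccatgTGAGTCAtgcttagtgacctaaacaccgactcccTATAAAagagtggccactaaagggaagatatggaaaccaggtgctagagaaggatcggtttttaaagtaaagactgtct
Mmp8: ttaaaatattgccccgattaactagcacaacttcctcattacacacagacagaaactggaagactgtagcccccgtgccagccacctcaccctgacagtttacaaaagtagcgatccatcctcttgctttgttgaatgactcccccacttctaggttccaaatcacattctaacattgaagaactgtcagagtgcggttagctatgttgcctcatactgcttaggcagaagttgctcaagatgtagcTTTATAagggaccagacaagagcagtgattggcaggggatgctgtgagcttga

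These windows lie at chr9:7272264-7272563 (Mmp13), chr9:7445572-7445871 (Mmp3), chr9:7502092-7502391 (Mmp10) and chr9:7558179-7558478 (Mmp8), all on the plus strand. TGACTCA or its complement was present in 7 of the 10 cluster promoters (Mmp13, Mmp12, Mmp1b, Mmp3, Mmp1a, Mmp10 and Mmp7), and in 5.2% of the 32851 promoters in the RefSeq table. TATAAA or its complement was present in 9 of the 10 and in 13.6% of all. Of all 79 members 49 had a promoter entry, of which 10 held the AP-1 element and 14 the TATA box. Mmp1a and Mmp1b hold both motifs and reached at most 7 and 5 counts in any library. A match describes the letters of the window and not a bound site.

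Among the 7 AP-1 subunit genes, 4 were called higher than gland in B1/P/Rbf, 4 higher and 1 lower in B1/P, and 5 higher in P/Rbf, beside 17.0%, 16.8% and 17.4% of all genes called higher. Fosl1, Fosl2 and Junb were higher in all 3 genotypes. Fosl1 rose from a mean of 0.0926 CPM in the glands to 2.10, 6.84 and 24.8 CPM, by 4.44, 6.15 and 8.00 on the log2 scale. Jun was higher in B1/P/Rbf and P/Rbf than in both B1/P (log2 fold change 1.75 and 1.33) and the glands (2.08 and 1.66). Any part of these subunits in the levels of the Mmp genes was not tested.

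The gelatinases cut denatured collagen and the collagen of basement membranes. Mmp9 was at 6.41, 3.01 and 3.96 CPM in the glands. It was at 322, 54.2, 120, 8.55 and 123 CPM in B1/P/Rbf, at 4.32, 115, 14.3, 25.4 and 36.5 in B1/P and at 29.0, 80.5, 33.9, 26.6 and 53.8 in P/Rbf. All tumors except B1/P tumor 225068 lay above the glands. The log2 fold change was 4.81 ± 1.12, 3.13 ± 1.03 and 3.33 ± 1.04 (edgeR adjusted p = 0.00304, 0.0259 and 0.0182). In B1/P the call was lost without tumor 225070 (2.17, adjusted p = 0.0685), without any 1 of the 3 glands, with limma-voom and with the library-set term (up to 0.131). In P/Rbf it was lost without gland 330155 or 330156 and with limma-voom (up to 0.0673). B1/P/Rbf was not called against B1/P (1.68 ± 0.78, 0.151), but was without tumor 225070 (2.64, 0.0277).

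Mmp2, the gelatinase made mostly by fibroblasts, was not called by edgeR in any comparison with all samples. It was at 68.2, 41.8 and 55.6 CPM in the glands, at 88.7, 18.7, 19.6, 24.6 and 21.7 in B1/P/Rbf, at 52.3, 210, 117, 39.9 and 72.0 in B1/P and at 14.6, 102, 64.2, 46.8 and 22.2 in P/Rbf. Of the 5 B1/P/Rbf tumors, 4 lay below every gland and 208855 lay above them. Without tumor 208855, Mmp2 was lower in B1/P/Rbf tumors than in B1/P tumors (log2 fold change -2.22, edgeR adjusted p = 0.0132), beside -1.50 ± 0.58 and adjusted p = 0.0819 with it, and DESeq2 called it with all samples (0.0399). The sum of 10 fibroblast markers moved with these levels, at 1070 to 5500 CPM in B1/P/Rbf, 3250 to 13800 in B1/P and 1680 to 3140 in the glands, and its part in the result was not tested.

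Mmp14 (MT1-MMP), the membrane-bound activator of pro-Mmp2, was the member of the membrane-type group called higher in every genotype. It was at 132, 88.0 and 115 CPM in the glands, at 270, 295, 329, 159 and 324 in B1/P/Rbf, at 218, 304, 363, 245 and 319 in B1/P and at 522, 634, 332, 321 and 382 in P/Rbf. No tumor overlapped the glands, while the tumor genotypes overlapped each other, with log2 fold changes against the glands of 1.3 ± 0.29, 1.38 ± 0.29 and 1.97 ± 0.30 (edgeR adjusted p = 0.00215, 0.00171 and 8.07e-05). Mmp24 was called in P/Rbf alone, at 0.126 to 2.19 CPM against 2 counts in the glands, a ratio of 31.4 (95% exact interval 8.51 to 262, counting error only), and this call was lost without any 1 gland (adjusted p up to 0.0797). Its highest level in P/Rbf was in tumor 287842, and the other P/Rbf tumors reached at most 0.953 CPM. Mmp15 was at 98.0, 95.0 and 97.4 CPM in the glands, 105.5, 70.6, 85.5, 44.3 and 17.3 in B1/P/Rbf, 57.1, 22.0, 15.8, 59.7 and 48.3 in B1/P and 90.8, 37.3, 103, 95.8 and 219 in P/Rbf. No B1/P tumor reached 4 of the 5 P/Rbf tumors, and Mmp15 was higher in P/Rbf than in B1/P (log2 fold change 1.43 ± 0.49, adjusted p = 0.0482), a call lost in 20 of 25 other settings. Without P/Rbf tumor 290845 it was 1.01 (0.151). Every B1/P tumor lay below every gland in Mmp15, which was not called there (-1.25, adjusted p = 0.0821). Limma-voom, the stricter filter of the study and the fit of only those groups called it. Mmp16, Mmp17 and Mmp25 were not called by edgeR with all samples. DESeq2 called Mmp16 in B1/P/Rbf and Mmp17 in P/Rbf against the glands, the latter also without TMM, and limma-voom called Mmp25 in P/Rbf against B1/P.

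Among the other MMPs, Mmp11 (stromelysin-3) was higher in B1/P than in the glands, at 20.9, 14.3, 40.8, 10.1 and 16.7 CPM against 6.18, 5.43 and 4.23 (log2 fold change 1.96 ± 0.56, edgeR adjusted p = 0.0124). That call was lost without gland 330156 (0.0622) and with the library-set term (0.117). In B1/P/Rbf it was at 9.90, 5.88, 8.63, 9.69 and 5.09 CPM, below every B1/P tumor (-1.39 ± 0.45, adjusted p = 0.0442, lost in 13 of 24 other settings), and in P/Rbf at 3.88, 23.4, 18.9, 8.55 and 7.76. P/Rbf was not called against the glands (1.24, 0.0789), but was without tumor 287842 (1.56, 0.0213), by DESeq2, by limma-voom and without TMM. Mmp28 (epilysin), known from resting epithelium, fell against the glands in each genotype by 3.96, 3.55 and 2.38 on the log2 scale (adjusted p = 0.00249, 0.00557 and 0.0382), the last lost in 8 of 24 other settings. It was at 23.3, 15.2 and 33.3 CPM in the glands, 3.52, 0.890, 1.10, 1.37 and 0.779 in B1/P/Rbf, 0.699, 7.08, 0.955, 0.680 and 0.788 in B1/P and 3.42, 13.2, 1.27, 3.92 and 1.19 in P/Rbf. All tumors lay below all glands, and without tumor 225070 the fall in B1/P was by 4.93. Mmp19 fell by 2.84 in B1/P/Rbf and 2.94 in P/Rbf (adjusted p = 0.00231 and 0.00176), from a mean of 43.8 CPM to 6.12 and 5.71. In B1/P Mmp19 was not called (-1.44, 0.0873), but was without tumor 225070 (0.00941), by limma-voom and with the library-set term. Mmp23 was not called with all samples, but without tumor 208855 it was lower in B1/P/Rbf tumors than in B1/P tumors and in the glands (0.00678 and 0.00458). Mmp20, which was not tested, reached 150 counts in tumor 208857.

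Of the 9 somatic ADAMs with an active protease domain, 4 were higher than gland in B1/P/Rbf, 3 in P/Rbf and 0 in B1/P, beside 17.0%, 17.4% and 16.8% of all genes. Adam10, the sheddase of Notch receptors, E-cadherin and other surface proteins (chromosome 9, positions 70678997 to 70780229, GRCm38), was the member with the highest level per kb of exon in B1/P/Rbf, in P/Rbf and in the glands, at 215, 246 and 42.1 CPM per kb. The next were Timp1 in B1/P/Rbf, at 63.0, and Timp2 in P/Rbf and the glands, at 78.7 and 37.95 CPM per kb. In B1/P it was at 42.4 CPM per kb, where Timp1 was the highest at 59.7. Adam10 was at 862, 931, 1071, 910.0 and 1517 CPM in B1/P/Rbf and at 794, 1750, 796, 1336 and 1376 in P/Rbf. It was at 134, 316, 188, 181 and 224 CPM in B1/P and at 202, 219.7 and 199.5 in the glands.

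Adam10 in every tumor with T121 lay above every B1/P tumor and every gland, and B1/P tumors overlapped the glands. Against B1/P the log2 fold change was 2.34 ± 0.28 in B1/P/Rbf and 2.54 ± 0.28 in P/Rbf (edgeR adjusted p = 0.000132 and 8.99e-05). Against the glands it was 2.35 ± 0.34 and 2.55 ± 0.34 (4.58e-05 and 2.3e-05) in these genotypes and 0.01 ± 0.30 (0.982) in B1/P. B1/P/Rbf and P/Rbf differed by -0.19 ± 0.26 (0.775). The 4 calls held in all 25 other settings, the library-set term included. An exact two-sided permutation test on log2 CPM gave p = 0.00794 against B1/P for each, the smallest p that 5 against 5 samples allow, and 0.0918 after adjustment over 162 tests of named members.

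**Figure D3:**
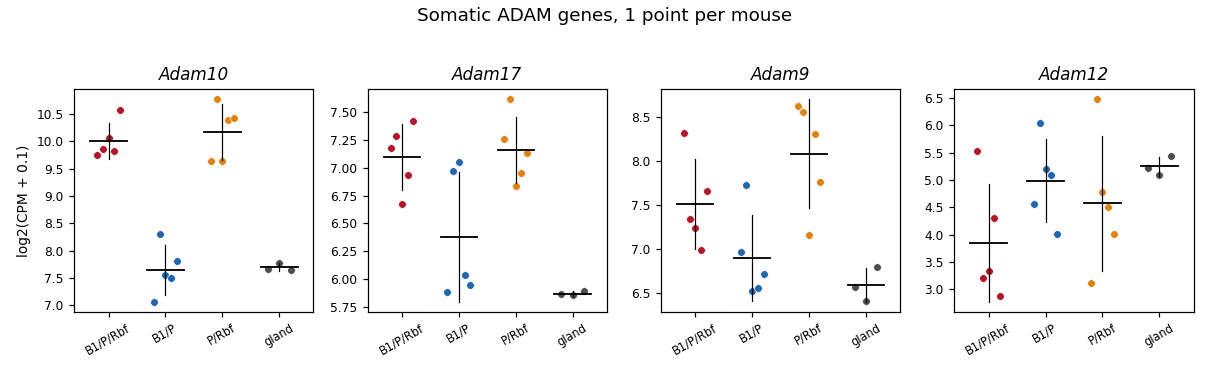
Log2(CPM + 0.1) of 4 Adam genes (panels), 1 point per mouse by group, with a horizontal line at the mean and a vertical line of 1 SD either way on that scale. Adam10 separates the 10 tumors with T121 from B1/P tumors and glands, Adam17 and Adam9 are higher in tumors with T121 than in glands, and Adam12 overlaps in all groups.

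The summed level of 5 luminal epithelial markers was 2830 to 6350 CPM in B1/P/Rbf, 683 to 3070 in B1/P, 5930 to 12300 in P/Rbf and 2070 to 2460 in the glands. By tumor this sum and Adam10 did not always go together. Tumor 210906 had the lowest sum of B1/P/Rbf, 2830 CPM, and the highest Adam10, 1517. Tumor 287842 had the highest sum of P/Rbf, 12300 CPM, and the lowest Adam10, 794. The part of luminal content in the Adam10 result was not tested. Of these 5 markers, 2 were called higher in B1/P/Rbf and 4 in P/Rbf than in B1/P. The genes beside Adam10 were looked at after its values were seen. Mindy2, the deubiquitinase gene next to it on the minus strand, was higher than in B1/P by 1.39 ± 0.26 in B1/P/Rbf and 1.54 ± 0.26 in P/Rbf on the log2 scale (edgeR adjusted p = 0.00227 and 0.00127), with means of 126, 48.2 and 140 CPM in B1/P/Rbf, in B1/P and in P/Rbf. Unlike Adam10 it was at 89.0 CPM in the glands, and the tumors with T121 were not called against them (adjusted p = 0.1995 and 0.097). Gm10642, which overlaps Mindy2 and is at about 1 CPM or less, was also higher than in B1/P (1.57 and 1.78, adjusted p = 0.0277 and 0.014). Sltm, further along on that side, was not called against B1/P (0.35 ± 0.15 and 0.32 ± 0.15) but was higher than in the glands with no overlap (0.66 and 0.63, adjusted p = 0.00939 and 0.0114). On the other side Lipc, the next gene, was not called (2.20 and 1.14, 0.0609 and 0.295). Beyond it Aqp9 was lower in P/Rbf than in B1/P (-3.28, 0.00323) and Aldh1a2 higher in B1/P/Rbf (1.84, 0.0475).

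The RefSeq promoter of Adam10 (GRCm38.p6, chr9:70678732-70679031, plus strand, 250 bases before to 50 after the start) is shown beside those of the Mmp cluster, since it holds neither motif. It is 73.3% G and C, beside 43.7%, 40.0%, 37.7% and 46.0% in Mmp13, Mmp3, Mmp10 and Mmp8.
Adam10: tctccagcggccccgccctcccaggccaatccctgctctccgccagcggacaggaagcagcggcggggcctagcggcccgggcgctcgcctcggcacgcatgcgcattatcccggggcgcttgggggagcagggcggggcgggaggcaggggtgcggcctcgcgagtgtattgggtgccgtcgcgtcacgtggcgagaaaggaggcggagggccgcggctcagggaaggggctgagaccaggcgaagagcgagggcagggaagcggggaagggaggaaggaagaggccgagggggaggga

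Adam17 (TACE), which sheds tumor necrosis factor and several ligands of the epidermal growth factor receptor, was at 58.3, 57.9 and 59.3 CPM in the glands. It was at 144, 156, 102, 122 and 170.4 CPM in B1/P/Rbf, at 59.1, 125, 133, 65.7 and 61.6 in B1/P and at 152, 195.5, 114, 124 and 140 in P/Rbf. All tumors with T121 lay above the glands (log2 fold change 1.25 ± 0.29 and 1.31 ± 0.30, edgeR adjusted p = 0.00331 and 0.00226), and those of B1/P were split between gland-like and higher values (0.60 ± 0.29, 0.115; called without TMM scaling at 0.96, 0.0158). Against B1/P it was not called (0.0789 and 0.0510), but without B1/P tumor 246361 it was, at 0.84 (0.0300) and 0.90 (0.0201), and without 225070 at 0.80 (0.0350) and 0.86 (0.0232). Without P/Rbf tumor 290860 or gland 330155 the P/Rbf value was 0.78 (0.0463) and 0.76 (0.0442), and DESeq2 (0.0284) and the library-set term (1.19, 0.0206) also called it.

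Adam9, another sheddase, was at 95.0, 85.2 and 111 CPM in the glands, 320, 162, 151, 127 and 203 in B1/P/Rbf, 125, 212, 92.0, 94.4 and 105 in B1/P and 396, 377, 143, 318 and 218 in P/Rbf. It was higher in P/Rbf than in the glands (log2 fold change 1.58 ± 0.38, edgeR adjusted p = 0.00383) and than in B1/P (1.21 ± 0.32, 0.0141), and both calls were kept in all 25 other settings. In B1/P/Rbf its call against the glands (0.99, 0.0459) was lost in 13 of 25 other settings, among them without tumor 208855 (0.73, 0.115). Adam28 was at 12.5 and 19.2 CPM in B1/P/Rbf tumors 208855 and 208863 and at most 4.52 elsewhere, and its call against the glands (5.60 ± 2.12, 0.0468) was lost in 13 of 24 other settings, with adjusted p up to 0.382. Adam12, a sheddase of activated fibroblasts, was at 37.2, 34.0 and 43.4 CPM in the glands, 46.0, 9.17, 9.95, 19.6 and 7.24 in B1/P/Rbf, 23.6, 65.7, 36.9, 34.0 and 16.1 in B1/P and 8.57, 89.0, 27.3, 22.6 and 15.9 in P/Rbf. It was called in no comparison with all samples, and without 208855 it was lower in B1/P/Rbf than in the glands (-1.73, 0.0406). Adam8, Adam15, Adam19 and Adam33 were not called by edgeR with all samples. In alternative fits of all samples, DESeq2, limma-voom and the fit without TMM called Adam8 higher in B1/P/Rbf than in the glands, and DESeq2 and the fit without TMM did so for B1/P. Adam33 was called lower than gland in B1/P by limma-voom, in P/Rbf by DESeq2 and in both by the fit with library sets. Without B1/P tumor 225070, Adam8 was higher than in B1/P and in the glands in B1/P/Rbf (0.00798 and 0.00102) and P/Rbf (0.0351 and 0.00462).

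Of the 3 ADAMs without a working protease site, which serve as adhesion proteins mainly in neurons, Adam23 was lower than gland in B1/P/Rbf and P/Rbf by 3.06 and 4.63 on the log2 scale (edgeR adjusted p = 0.0137 and 0.00113), and in B1/P/Rbf the call was lost with the library-set term (0.480). It was at 28.3, 19.2 and 23.0 CPM in the glands, 6.30, 1.21, 0.634, 4.54 and 1.33 in B1/P/Rbf, 1.53, 6.37, 3.87, 20.9 and 1.70 in B1/P and 0.288, 0.694, 2.81, 0.526 and 0.374 in P/Rbf. Of the tumors, 1 of B1/P reached the range of the glands. Without P/Rbf tumor 290860 the value of P/Rbf was -5.63. It was also lower in P/Rbf than in B1/P (-2.86 ± 0.85, 0.0264, lost in 7 of 24 other settings). Adam22 was lower in B1/P/Rbf tumors than in B1/P tumors (-3.25 ± 1.02, 0.0386, lost in 11 of 24 other settings), and -4.59 without tumor 208855. Adam22 in P/Rbf was not called against B1/P (-2.65, 0.0703), but was by DESeq2, by limma-voom and without tumor 208855. It was at 1.48, 0.351, 0.138, 0.0761 and 0.0974 CPM in B1/P/Rbf, 1.27, 1.21, 5.48, 5.09 and 7.38 in B1/P, 0.115, 1.10, 0.481, 1.53 and 0 in P/Rbf and 3.05, 2.91 and 2.81 in the glands. With all samples edgeR called Adam11 in P/Rbf against gland (-1.98, 0.0476) and in no other comparison, and that call was lost in 18 of 24 other settings. Adam11 was also called in B1/P against gland by limma-voom and without tumor 287842, and in B1/P/Rbf against gland in the fit of only those groups. Of the reproductive tract ADAMs 4 were tested. Adam4 was higher in P/Rbf than in the glands (2.01 ± 0.70, 0.0324, lost in 5 of 24), at 1.76 to 3.77 against 0.391 to 0.785 CPM. Adam6b, singled out after its values were seen, had 95 counts in the glands and 0 in all 15 tumors. Adam6b thus passed the filter only through the glands. It was at least 66.1-fold, 63.0-fold and 64.1-fold lower in B1/P/Rbf, in B1/P and in P/Rbf, taking 3 counts over the group as the floor. It lies on chromosome 12 (113489511 to 113492057, GRCm38), within the immunoglobulin heavy chain locus, and the lymphocyte markers were lower in the same samples. Adam1a and Adam32 were not called by edgeR with all samples. Without TMM, Adam1a was called higher than gland in B1/P, as by DESeq2 and limma-voom, and Adam32 in every genotype, as by limma-voom in B1/P/Rbf and P/Rbf.

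Several ADAMTS genes whose products cleave proteoglycans were lower in tumors with T121 than in B1/P. Of the 7 tested, 4 were lower in B1/P/Rbf tumors than in B1/P tumors (Adamts1, Adamts4, Adamts5 and Adamts20) and 5 in P/Rbf (Adamts1, Adamts5, Adamts9, Adamts15 and Adamts20), beside 9.29% and 10.8% of all genes, and none was higher. Adamts1 was at 92.7, 184, 88.3, 132 and 154 CPM in B1/P. It was at 36.2, 23.1, 33.5, 8.22 and 14.4 CPM in B1/P/Rbf, at 12.2, 61.1, 10.6, 12.9 and 27.6 in P/Rbf and at 32.3, 27.8 and 30.1 in the glands. All B1/P tumors lay above all other samples. The log2 fold change was -2.49 ± 0.49 in B1/P/Rbf and -2.39 ± 0.49 in P/Rbf against B1/P (edgeR adjusted p = 0.00289 and 0.00379), and 2.11 ± 0.59 in B1/P against the glands (0.0105), with all 3 calls kept in the 24 other settings.

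Adamts20, a versican-cleaving protease known from pigment cell migration, was at 14.0, 0.296, 22.2, 8.81 and 13.8 CPM in B1/P and at 5.47, 4.45 and 5.28 in the glands. It was at 0.142, 0, 0.331, 0 and 0.0649 CPM in B1/P/Rbf and at 0, 0.0631, 0.177, 0.184 and 0.0340 in P/Rbf, with 0 counts in 3 of these 10 tumors. Against B1/P the log2 fold change was -6.74 ± 1.19 and -6.92 ± 1.2 (edgeR adjusted p = 0.00162 and 0.00147), and against the glands -5.51 ± 1.17 and -5.70 ± 1.2 (0.0015 and 0.0012). Without tumor 208863 the values of B1/P/Rbf were -7.77 and -6.55, and the library-set term ended its call against the glands (0.0509). B1/P tumor 225070 had as little as the tumors with T121.

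Adamts5, a major aggrecanase, was at 46.2, 35.8 and 58.7 CPM in the glands and at 4.64, 98.8, 23.6, 47.9 and 11.2 in B1/P. It was at 21.1, 4.86, 1.35, 2.16 and 2.69 CPM in B1/P/Rbf and at 1.01, 5.42, 3.32, 2.37 and 1.02 in P/Rbf, so all of these lay below every gland. Against the glands the log2 fold change was -2.87 ± 0.90 and -4.16 ± 0.94 (edgeR adjusted p = 0.0191 and 0.00226), the first lost without gland 330156 (0.0574) and with the library-set term (0.137). Against B1/P it was -3.82 ± 0.88 in P/Rbf (0.00727, kept in all 24 other settings, and -3.05 without tumor 225070) and -2.53 ± 0.83 in B1/P/Rbf (0.0452). The latter was lost in 15 of 24 other settings, and without tumor 225070 it was -1.76 (0.130). Adamts1 and Adamts5 are neighbors on chromosome 16.

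Adamts4, the other main aggrecanase, was higher than gland in every genotype, at 3.01 to 7.62 CPM in the glands, 15.0 to 34.4 in B1/P/Rbf, 40.8 to 185 in B1/P and 9.77 to 105 in P/Rbf (log2 fold change 2.08, 4.07 and 2.73, edgeR adjusted p = 0.0281, 0.000791 and 0.0071). In B1/P/Rbf that call was lost without tumor 208855 or gland 330154 or 330155 (up to 0.0985) and with the library-set term (0.544). It was lower in B1/P/Rbf tumors than in B1/P tumors with no overlap (-1.99 ± 0.57, 0.0250), a call lost without tumor 208857, 208863, 209490 or 225070 (adjusted p up to 0.0647). P/Rbf was not called against B1/P (-1.33, 0.103), but was without tumor 287845 (-2.31, 0.00381) and by limma-voom (0.0196). Tumor 287845 was at 105 CPM of Adamts4, and the other P/Rbf tumors were at 9.77 to 28.6. Adamts15 and Adamts9 fell in P/Rbf against B1/P by 2.75 (0.0135) and 1.84 (0.00778) on the log2 scale. The Adamts15 call was lost with only the groups compared and with the library-set term (up to 0.133). Adamts9 was at 92.6 ± 46.0 CPM (mean ± SD) in B1/P/Rbf, 78.1 ± 30.1 in B1/P, 21.7 ± 11.4 in P/Rbf and 30.02 ± 2.68 in the glands. It was the member nearest to a call between B1/P/Rbf and P/Rbf (2.09 ± 0.43, adjusted p = 0.0501), and was called by DESeq2 (0.000379), without TMM, without the filter, without B1/P/Rbf tumor 209490 (0.0171) and without B1/P tumor 225070 (0.0472). Against the glands Adamts9 was higher in B1/P/Rbf (1.62, 0.0198, lost without gland 330154 or 330156) and B1/P (1.38, 0.0447, lost in 10 of 25 other settings). DESeq2 also called Adamts15 in B1/P/Rbf against P/Rbf (0.0407). Adamts8 was not called.

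**Figure D4:**
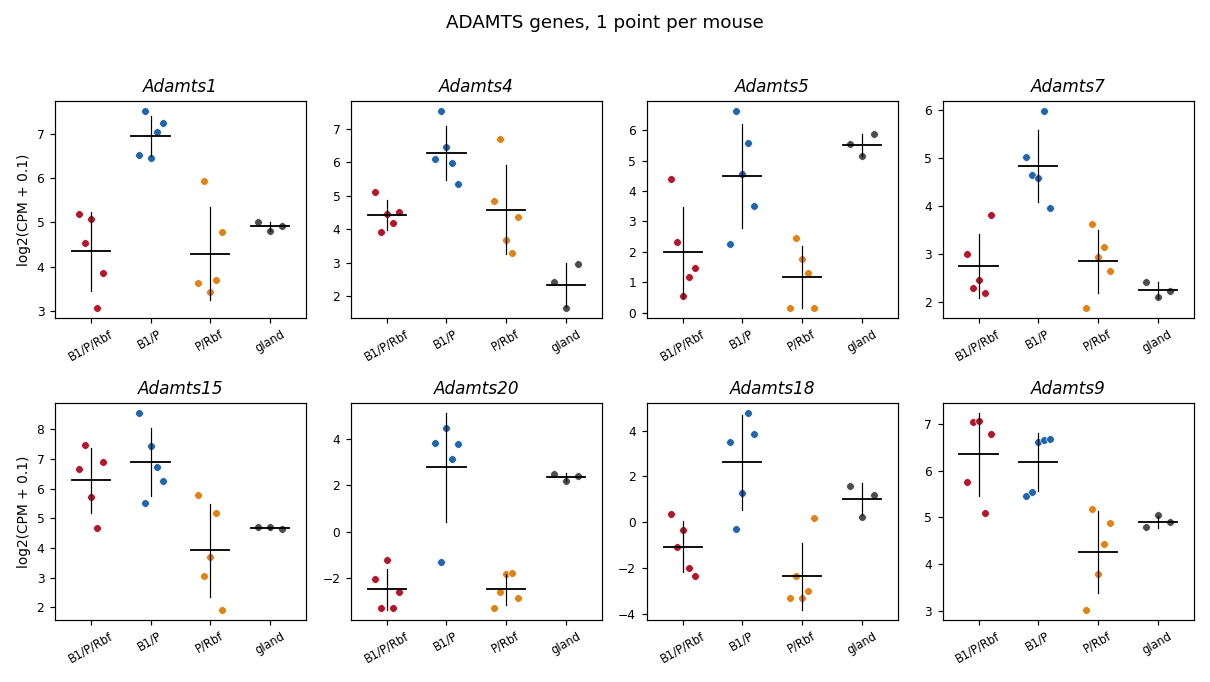
Log2(CPM + 0.1) of 8 Adamts genes (panels), 1 point per mouse by group, with a horizontal line at the mean and a vertical line of 1 SD either way on that scale. Adamts1 and Adamts7 place all 5 B1/P tumors above the other samples, Adamts20 is near 0 CPM in the tumors with T121 and in 1 B1/P tumor, and Adamts9 of every P/Rbf tumor lies below every B1/P tumor.

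Of the 9 other ADAMTSs, 2 were lower in B1/P/Rbf and 4 in P/Rbf than in B1/P, beside 9.29% and 10.8% of all genes. Adamts7, which cuts cartilage oligomeric matrix protein, was at 32.3, 24.8, 23.8, 62.7 and 15.3 CPM in B1/P and at 4.44 to 13.9 in B1/P/Rbf, 3.54 to 12.2 in P/Rbf and 4.16 to 5.24 in the glands. No tumor with T121 reached the lowest B1/P tumor (log2 fold change -2.13 ± 0.42 and -2.06 ± 0.42, edgeR adjusted p = 0.00315 and 0.00389), and B1/P was above the glands (2.77 ± 0.53, 0.000800). Adamts18 was at 11.2, 0.711, 2.31, 27.0 and 14.3 CPM in B1/P, 1.16, 0.378, 0.689, 0.152 and 0.0974 in B1/P/Rbf, 0, 0.0946, 0, 0.0263 and 1.02 in P/Rbf and 2.89, 1.08 and 2.17 in the glands. Both genotypes with T121 were lower than B1/P (-4.47 ± 1.25, 0.0217, and -5.62 ± 1.33, 0.00871). The first of these calls was lost without tumor 208857 (0.0529) and with the library-set term (0.0914), and without tumor 255232 it was -3.83. The second was -8.42 without P/Rbf tumor 290845 and -4.98 without 255232. Adamts17 and Adamts10 fell in P/Rbf against B1/P by 3.37 (0.021) and 1.31 (0.0274) on the log2 scale, and with the library-set term these were -3.37 (0.0636) and -0.09 (0.907). The latter call was also lost without tumor 225068, 225070, 287842 or 287822 (up to 0.0775), with limma-voom and with only the groups compared. Within P/Rbf, Adamts17 was at 3.23 CPM in tumor 290845 and at 0.221 to 0.403 in the others. In B1/P, Adamts15 and Adamts17 were higher than in the glands (2.61, 0.0278, and 3.25, 0.041), calls lost without any 1 gland among other settings. Adamts6 was not called by edgeR with all samples. In P/Rbf against B1/P (1.24, 0.1) limma-voom and the library-set term called it, and against the glands the fit of only those groups did (0.0491).

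Adamts16 was higher than gland in each genotype by 4.30, 3.39 and 5.08 on the log2 scale (edgeR adjusted p = 0.00795, 0.0256 and 0.0033), and lay in every tumor above every gland. It was at 0.586, 0.0982 and 0.440 CPM in the glands, 5.96, 13.0, 12.7, 3.48 and 2.08 in B1/P/Rbf, 1.24, 5.15, 8.95, 2.51 and 1.86 in B1/P and 0.805, 38.7, 5.80, 6.37 and 11.9 in P/Rbf. The B1/P call was lost without tumor 246361 or any 1 gland (up to 0.0978). The library-set term ended that of B1/P/Rbf (0.167) and that of B1/P (0.126), and without tumor 287845 the value of P/Rbf was 4.04. Adamts13, the protease of von Willebrand factor, had 56 counts in the glands and fell in each genotype by 3.16, 3.37 and 4.97 (0.0408, 0.035 and 0.00637), the first and second of these lost in 10 and 9 of 24 other settings. The tumor groups held 12, 10 and 3 counts of it, so Adamts13 passed the filter only through the glands. Adamts12 and Adamts19 were lower in P/Rbf (0.0474, lost in 16 of 24 other settings, and 0.0146). The procollagen N-propeptidases Adamts2, Adamts3 and Adamts14, which trim fibrillar procollagens, were called in no comparison by edgeR with all samples, and DESeq2 called Adamts14 lower in B1/P/Rbf against B1/P (0.0279). Adamts2 was at 61.6, 55.1 and 66.1 CPM in the glands, 75.4, 18.1, 25.1, 22.2 and 28.9 in B1/P/Rbf, 38.02, 97.8, 100.1, 56.1 and 51.7 in B1/P and 17.6, 74.6, 39.7, 21.8 and 24.3 in P/Rbf. Tumors 208855 and 287845 were the highest of their groups, and when each was left out in turn Adamts2 was lower than in B1/P in B1/P/Rbf (-1.55, 0.0169) and P/Rbf (-1.41, 0.0272), and lower than in the glands (-1.37, 0.0218, and -1.24, 0.0421).

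Some markers of fibroblasts, of cartilage and bone and of myoepithelium were, like some ADAMTS genes, lower in the genotypes with T121 than in B1/P. Of 10 fibroblast markers 2 were lower in B1/P/Rbf and 4 in P/Rbf than in B1/P and none was higher (median log2 fold change -1.25 and -1.04). Of 7 tested cartilage and bone markers 3 and 4 were lower. The sums over all 10 markers of that list were 9.36 to 424 CPM in B1/P, 1.82 to 16.3 in B1/P/Rbf and 1.53 to 6.81 in P/Rbf. Of 7 myoepithelial markers 2 and 2 were lower, with sums of 362 to 2190, 53 to 337 and 75.9 to 1450 CPM. By tumor these sums and the ADAMTS genes did not always go together. Tumor 225070 had the highest fibroblast sum of B1/P, 13800 CPM, and the lowest Adamts20, 0.296. It had the lowest myoepithelial sum of B1/P, 362 CPM, and the highest Adamts1, 184. The part of these cell types in the ADAMTS results was not tested. Of 6 skeletal muscle markers 3 and 4 were called lower, while 1 B1/P tumor, 248662, had a high sum, 607 CPM. The sum was 2.97 to 10.2 CPM in the other B1/P tumors, below every B1/P/Rbf tumor (10.5 to 31.8) and within the range of P/Rbf (2.01 to 15.7). 

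The TIMPs did not move as a group. Timp1, which inhibits most MMPs, was at 6.96, 3.24 and 7.18 CPM in the glands. It was at 71.6, 49.9, 57.4, 27.9 and 73.0 CPM in B1/P/Rbf, at 11.0, 142, 23.6, 61.6 and 27.1 in B1/P and at 27.6, 73.5, 35.9, 19.9 and 47.9 in P/Rbf. Every tumor lay above every gland, with log2 fold changes of 3.27 ± 0.73, 3.19 ± 0.73 and 2.82 ± 0.71 (edgeR adjusted p = 0.00215, 0.00289 and 0.005), the first lost with the library-set term (0.0609). Timp4 went the other way, from 15.8, 24.2 and 31.6 CPM in the glands to 0.114, 0.0270, 0.0276, 0.127 and 0.162 in B1/P/Rbf, 0.0318, 0.0296, 0.0503, 0.0296 and 0 in B1/P and 0.0575, 0.0631, 0, 0 and 0 in P/Rbf. The glands held 2079 counts and the tumors 16, 5 and 4. The log2 fold change was -7.98 ± 0.83, -9.52 ± 0.91 and -9.78 ± 0.92 (1.89e-06, 1.27e-06 and 6.35e-07), these calls held in all 24 other settings, and the value of P/Rbf was -10.38 without tumor 287845.

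Timp2, which also takes part in the activation of pro-Mmp2 by Mmp14, was at 191, 110.1 and 143 CPM in the glands, 240.1, 89.3, 146, 183 and 139 in B1/P/Rbf, 168, 336, 102, 163 and 120.1 in B1/P and 321, 415, 229, 309 and 259 in P/Rbf. It was higher in P/Rbf than in the glands with no overlap (log2 fold change 1.05 ± 0.38, edgeR adjusted p = 0.0358), a call lost without tumor 287845 (0.92, 0.0703) or gland 330155 or 330156 (up to 0.106) and with the stricter filter of the study (0.178). Against B1/P it was not called (0.79, 0.0868), but without B1/P tumor 225070 it was (1.15, 0.00939).

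Timp3, the matrix-bound inhibitor of ADAM10 and ADAM17 as well as MMPs, was at 126, 129.7 and 129 CPM in the glands, 131, 143, 53.7, 52.2 and 137 in B1/P/Rbf and 224, 348, 224, 273 and 397 in B1/P. In P/Rbf it was at 2016 CPM in tumor 287845 and at 27.6, 40.0, 108 and 24.8 in the other 4. Every B1/P tumor lay above every gland and every B1/P/Rbf tumor, and 4 P/Rbf tumors lay below every gland. No comparison was called in the fit of all samples (edgeR adjusted p 0.23 to 0.84). In fits of only the groups compared, Timp3 was lower in B1/P/Rbf tumors than in B1/P tumors (0.0188) and higher in B1/P than in the glands (0.00697). Without tumor 287845, Timp3 was lower than in B1/P in B1/P/Rbf (-1.50, 0.0171) and in P/Rbf (-2.55, 0.00222), and lower in P/Rbf than in the glands (-1.36, 0.0334). Timp1, Timp3 and Timp4 lie within Syn1, Syn3 and Syn2 on the opposite strand, and whether counting used the strand was not stated.

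**Figure D5:**
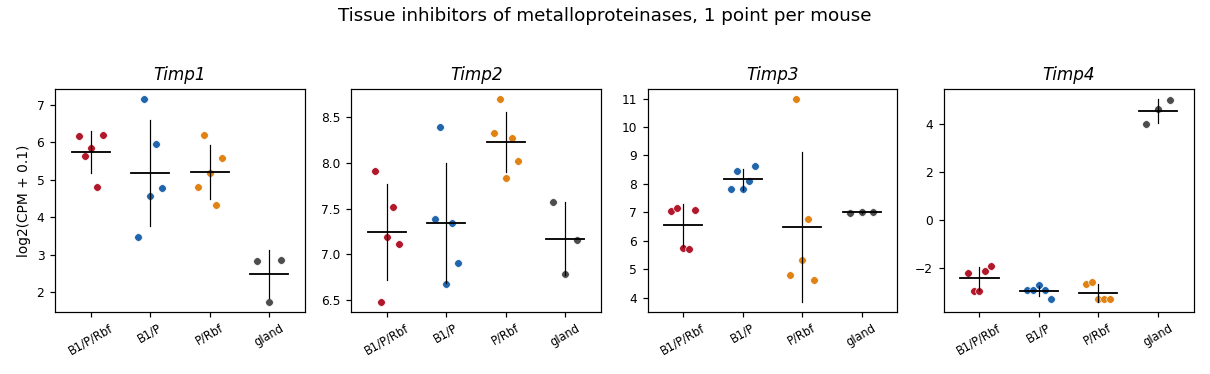
Log2(CPM + 0.1) of the 4 Timp genes (panels), 1 point per mouse by group, with a horizontal line at the mean and a vertical line of 1 SD either way on that scale. Timp1 is higher and Timp4 lower in all tumors than in all glands, and Timp3 of P/Rbf holds 1 tumor at 2016 CPM above 4 that lie below the glands.

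A separate list held 35 tested genes of other inhibitors, activators and partners of these proteases. Their log2 fold changes, called or not, ran from -6.41 to 7.44 in B1/P/Rbf against the glands. In P/Rbf against B1/P they ran from -4.68 to 3.58. The genes named from this list are not those with the largest changes. Against B1/P, B1/P/Rbf had 0 higher and 4 lower and P/Rbf had 3 higher and 7 lower, and against the glands B1/P/Rbf had 9 higher and 6 lower, B1/P 10 and 3, and P/Rbf 9 and 6. As shares of the 35, 0.0% higher and 11.4% lower in B1/P/Rbf and 8.57% and 20.0% in P/Rbf stood against B1/P beside 7.36%, 9.29%, 8.43% and 10.8% over all genes. Against the glands, B1/P/Rbf and P/Rbf each had 25.7% higher and 17.1% lower and B1/P had 28.6% and 8.57%, beside 16.8% to 17.4% and 16.9% to 20.3% over all genes. Reck, a membrane-anchored MMP inhibitor, was lower in B1/P/Rbf and P/Rbf than in B1/P (log2 fold change -2.33 and -2.84) and than in the glands (-1.62 and -2.13). Spock2, a secreted matrix proteoglycan, fell in the same 4 comparisons by 1.93, 2.61, 1.53 and 2.21.

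Among the tetraspanins that escort ADAM10 to the cell surface, Tspan5 was lower in B1/P/Rbf and P/Rbf than in B1/P (log2 fold change -1.88 and -2.29), at means of 12.4, 9.29 and 45.4 CPM. Tspan17 was higher in P/Rbf than in B1/P (1.31), and Tspan10, Tspan14, Tspan15 and Tspan33 were not called there. The rhomboid-like Rhbdf1, which brings ADAM17 to the surface, was higher than gland in every genotype (1.03, 1.3 and 1.19), and Rhbdf2 was not called. Furin, which cuts the propeptide from membrane-type MMPs and ADAMs, was higher than gland in B1/P/Rbf (1.98). Plat, the tissue-type plasminogen activator, was higher than gland in all 3 genotypes, by 1.97, 2.28 and 1.92.

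Within each genotype 1 tumor held the highest level of many members. Over the 58 members tested, tumor 208855 held the highest level of the 5 B1/P/Rbf tumors for 30 members, 225070 the highest of the B1/P tumors for 29, and 287845 the highest of the P/Rbf tumors for 22. The sum of fibroblast markers was 5500 CPM in 208855 against 1070 to 2510 in the other B1/P/Rbf tumors, 13800 in 225070 against 3250 to 6870 in the other B1/P tumors, and 4470 in 287845 against 1540 to 3480 in the other P/Rbf tumors. The part of stromal content in these levels was not tested.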

How the data were processed

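RNA from 15 mammary tumors and 3 normal mammary glands was sequenced as stranded mRNA libraries in pairs of reads. The deposited values are expected counts per gene that the authors made with RSEM 1.3.0 after trimming with cutadapt 1.18 (per the labels), neither normalized nor filtered, and 5.61% of them were not whole. The study's methods name a human reference, while all 55450 gene identifiers are those of mouse GENCODE M21 (GRCm38). Totals of 27661173 to 37794889 counts leave the spread between mice as the main error, except for genes with few counts.

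Counts were rounded and fitted in R 4.3.3 with edgeR 4.0.16 (TMM scaling, filterByExpr with a minimum count of 10, 1 quasi-likelihood fit of all 18 samples by group), after preparation in Python 3.11.15. Adjustment was by Benjamini and Hochberg over 19186 genes, with calls at 0.05 or less. Some members, such as Adamts13, Adamts19, Adam6b and Timp4, passed the filter only through the glands. Others, such as Mmp7, Mmp8, Mmp10, Mmp13, Mmp24, Adam28 and Adamts16, passed it only through the tumors. For members of both kinds the tests against gland are not independent of the filter. The SE is the log2 fold change divided by the square root of F, and log2 CPM used a prior count of 2. Alternatives were DESeq2 1.42.0, limma 3.58.1 (voom with quantile normalization, as in the study), no TMM, no filter, the stricter filter of the study (log2 CPM of 6 or more in 6 or more samples), only the groups compared, a library-set term and leaving out each sample. The fit was tested on simulated data.

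Members and lists were chosen with earlier results of these data known. Values per sample are given for Mmp2, Mmp3, Mmp7, Mmp9, Mmp11 to Mmp14, Adam10, Adam12, Adam17, Adamts1, Adamts2, Adamts5 and the Timp genes, and for the 3 called members with the largest rise and fall in each comparison among those with a mean of at least 1 CPM. Other members are given by ranges, and per-sample values beyond this rule were chosen after the values were seen. Intervals on ratios of counts are exact and cover counting error only.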

Additional observations from a re-analysis of the deposited data

Results flagged for a closer look

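In groups of 5 tumors, a sample was picked out where its gap to the nearest other value on the log2 scale took up more of the group's range than the 95% limit of Dixon's test allows. This happened in 5 of the 79 groups examined, and chance alone gives about 1 in 20. B1/P tumor 225070 had the lowest Adamts20 of its group, 0.296 CPM against 8.81 to 22.2, and the highest Mmp28, 7.08 against 0.680 to 0.955. B1/P/Rbf tumor 208855 had the highest Mmp2 of its group, 88.7 CPM against 18.7 to 24.6, and the highest Mmp3, 333 against 8.04 to 19.7. B1/P/Rbf tumor 209490 had the lowest Mmp14 of its group, 159 CPM against 270 to 329. Tumors 225070 and 208855 also had the highest sums of fibroblast markers in their groups, 13800 and 5500 CPM, and the part of this in the levels was not tested.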

How the results depend on the processing

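None of the calls on genes named by the rule changed sign under any setting run. With the stricter filter of the study (log2 CPM of 6 or more in 6 or more samples) only 12 members were tested, and those called numbered 1 in B1/P/Rbf against B1/P, 4 in P/Rbf against B1/P, and 5, 4 and 5 against gland for B1/P/Rbf, for B1/P and for P/Rbf. Of the 4551 genes tested with it, calls against B1/P were 446 up and 440 down in B1/P/Rbf and 434 and 432 in P/Rbf, and those against gland 901 and 859, 823 and 777, and 822 and 847. Without a sample, the counts ranged from 4 to 13 in B1/P/Rbf against B1/P (lowest without 208857, and 5 without 208863 or 209490), from 10 to 17 in P/Rbf against B1/P, and from 0 to 1 in B1/P/Rbf against P/Rbf. Against gland they ranged from 16 to 26, from 12 (without gland 330156) to 21 and from 18 to 28. Counts over all genes moved too, to 1077 higher and 1250 lower without 208857 in the first comparison and to 1847 and 2512 without gland 330156 in B1/P against gland. In B1/P/Rbf against P/Rbf, DESeq2 called 3 members, beside 587 genes higher and 427 lower over all, and the fits without TMM or without the filter called 1, beside 62 and 13 and 46 and 12. The library-set term left 10 in B1/P/Rbf against gland. Set and genotype coincide there, and the term is estimated from the B1/P tumors alone. A call that it ended can thus not be read as an effect of the sets. Calls kept in every setting that tested the gene numbered 4 of 9, 8 of 13, 7 of 23, 11 of 19 and 18 of 26 in the 5 comparisons that had any.

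Without TMM the median of all genes moved by 0.368, 0.353 and 0.272 (log2) for B1/P/Rbf, for B1/P and for P/Rbf against gland, and with quantile normalization by 0.155, 0.0668 and 0.153, and by 0.101 in P/Rbf against B1/P. No paired analysis was possible because the groups share no mouse numbers. Each gland comparison rests on 3 glands, so leaving out 1 of them ended several calls. Genes with few counts in a group, such as Mmp10 in the glands, have folds of wide interval. The library sets are inferred, not labelled.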
